A study of Mus musculus with 6 samples.

Results

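The cadherins and protocadherins of the mouse spinal cord were described in Dhtkd1 null and wild-type mice. The members were every gene whose name in the scanner files starts with Pcdh, or is Cdh followed by a number, with the endothelial gene Cdh5 left out. That rule used names and no signal, and it found 67 genes on 115 probes, out of 27343 gene names on 41174 probes. A probe of 63 of the 67 stood well above background on 3 or more of the 6 arrays, and these 63 were tested among 21436 genes. The members not tested were Cdh9, above background on 2 arrays, and Cdh17, Pcdhb1 and Pcdhga12, each above background on 0 arrays. Spinal cord RNA of male C57BL/6 mice at the age of 8 weeks was labelled with Cy3 and measured on Agilent arrays of the whole mouse genome, with a separate array for each sample. The study compared 3 Dhtkd1 null samples with 3 wild-type samples, both from mice kept free of specific pathogens on freely available food and water. Dhtkd1 encodes a mitochondrial dehydrogenase subunit of lysine degradation, and the labels do not say which part of it is missing in the null mice.

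Cadherins are transmembrane proteins that bind cells to each other through calcium-dependent extracellular repeats. Classical cadherins link through catenins to the actin cytoskeleton, and in the developing spinal cord different motor neuron pools and interneuron classes carry different combinations of them. The clustered protocadherins are read from neighbouring variable exons by promoter choice, and their isoforms act in the self-recognition of neurites and in the survival of spinal interneurons. The delta protocadherins are single genes that act in axon growth and synapse formation.

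Agilent probes are 60 bases long. Probes of the same gene did not always give the same direction. The probes of Cdh8, Cdh11, Cdh19 and Pcdh7 are shown, a choice made after their values were seen. All positions are those of the files, on the mm9 build, and the first 30 bases are printed 5′ to 3′ except for Cdh19. Exon and UTR annotation of that build was not used here. The kept probes of Cdh8 lie at chr8:101554330-101554389 and chr8:101548590-101548649 on the minus strand, 5.7 kb apart.
Cdh8, probe 1: atgtggctatttgttttagaggcaagttta
Cdh8, probe 2: ttactgtctgatattgaacacagcaattat
The probes of Cdh11 lie on the minus strand at chr8:105191906-105191965, at chr8:105157896-105157955 and at chr8:105157473-105157532, so the first is 34.0 kb from the second. The file's accessions for probe 1 belong to 3 RefSeq genes (Cdh11, 2610005L07Rik and 6820431F20Rik), while those for probes 2 and 3 belong to Cdh11 alone.
Cdh11, probe 1: ctcagggacaaccaaagtgacgatcactct
Cdh11, probe 2: tatttaaatgaaggagaagtccacggtgaa
Cdh11, probe 3: tattttagtatacatacaaatatcagtatt
The Cdh19 probe spans 3056 bases of the minus strand, chr1:112786762-112789817, although it is 60 bases long. It therefore covers a splice junction, and all 60 bases are shown.
Cdh19: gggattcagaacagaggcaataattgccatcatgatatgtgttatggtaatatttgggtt
The probes of Pcdh7 lie on the plus strand at chr5:58520529-58520588 and, 400.3 kb away, at chr5:58120201-58120260. Both list Pcdh7 as their single RefSeq gene.
Pcdh7, probe 1: aaacaggagaatataagccatctcctgtca
Pcdh7, probe 2: aagttccattgcatgagaccttttagttgt

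Signals are log2 values relative to the 75th percentile of the array's own probes, so a value of 0 is the level of that percentile. The percentile itself was 918 to 1032 intensity units, 78.4% to 82.0% of spots were well above background, and arrays correlated across genes at r of 0.983 to 0.991. Dhtkd1 signal at its brighter probe was -4.30, -3.39 and -3.99 in the null samples, against -2.42, -3.12 and -2.92 in the wild-type samples. All 3 null values lay below all wild-type values at both probes of the gene, with differences of -1.07 and -1.08. Markers of cord cell types (neurons, motor neurons, oligodendrocytes, precursors, astrocytes, microglia and ependyma) were all above background on at least 3 arrays, and so were all listed markers of meningeal fibroblasts, Schwann cells, skeletal muscle and adipocytes. The arrays lie on 2 slides. Slide 1 holds all 3 null samples and wild-type 2, and slide 2 holds wild-type 1 and wild-type 3. The labels number the samples without saying that each is a separate animal, so p-values measure the spread between these samples, which may be technical.

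More members were higher than lower in null cords, by small amounts, and fewer were so without wild-type 3. Of the 63 tested members, 52 (82.5%) had a higher mean in the null samples, against 54.5% of all genes tested, and the median log2 difference was 0.11, against 0.017 over all genes. No member reached an adjusted p under 0.05 in limma (0 of 63, background 0%), and the lowest adjusted p was 0.40. At an unadjusted p under 0.05, 8 members were higher (background 5.76% of all genes) and 1 was lower (background 3.26%). All 3 null values lay above all wild-type values for 12 members (background 9.19%) and below them for 1 member, Pcdh12 (background 5.63%). These counts rest on the brightest kept probe of each gene. Cdh11 and Pcdh7, both among the 12, had other probes where all null values lay below all wild-type values. Cdh11 was also among the 8. A change in RNA per cell and a change in the number of cells of a type cannot be told apart in this whole tissue.

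**Figure D1:**
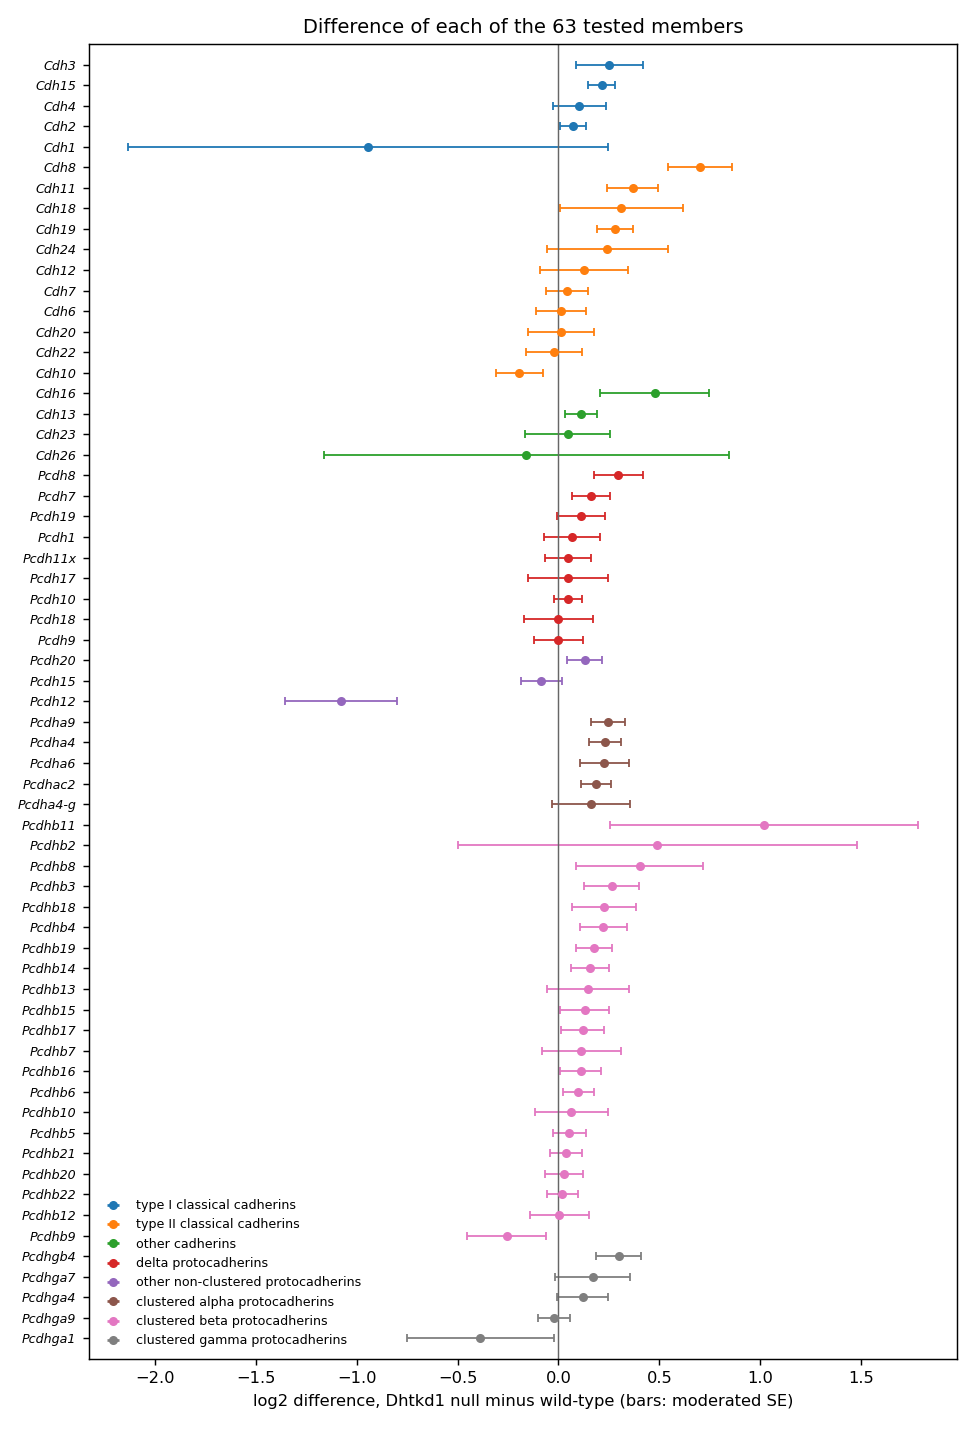
Log2 difference (null minus wild-type) of each of the 63 tested members on the horizontal axis, grouped and coloured by family, with bars of 1 moderated standard error. Most points lie a little to the right of 0, the largest negative ones are Pcdh12 and Cdh1, and Cdh1, Cdh26, Pcdhb2 and Pcdhb11 have the widest bars.

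Wild-type 3 was the array with the lowest signal for 33 of the 63 members (52.4%) and for 30.1% of all genes. Averaged over the members, each gene's deviation from its own mean was 0.044, 0.089 and 0.025 in the null samples, against 0.075, -0.037 and -0.20 in the wild-type samples. The groups overlapped, with null 2 above every wild-type array and wild-type 1 above the other 2 null arrays. Without wild-type 3, 35 of 63 members (55.6%) were higher, against 51.0% of all genes, and the median difference was 0.018. Within slide 1 alone, 40 of 63 members (63.5%) were higher, against 51.1% of all genes, with a median of 0.094, there with wild-type 2 as the single wild-type sample. Of the 9 members at an unadjusted p under 0.05, 3 remained so without wild-type 3, and 1 with slide as a fixed block. All 9 kept the sign of their difference without wild-type 3 and within slide 1. Groups that do not overlap must keep their sign in any subset of arrays. For all of the 9 except Pcdhgb4 the kept sign was therefore fixed in advance. With each array centred on its median instead, 44 of 63 (69.8%) were higher, against 43.1% of all genes. Wild-type 3 was also the lowest array for the mean of neuronal markers and for that of all genes (-0.045). The other arrays came in another order for the neuronal markers than for the members. The neuronal mean deviation over 8 of 8 genes was 0.086, 0.028 and -0.018 in the null samples, against 0.022, 0.018 and -0.13 in the wild-type samples. Single markers went both ways, with differences from -0.20 for Nefm to 0.37 for Syt1. The part of neuronal RNA in the members' differences was not tested.

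Among the type II classical cadherins, which mark neuronal subtypes and glia, 9 of 11 tested genes had a higher mean in the null samples. The share over all genes was 54.5%, and the median difference of the 11 was 0.12. The 3 genes at an unadjusted p under 0.05 were Cdh8, Cdh19 and Cdh11, all higher (background 5.76% of all genes). Cdh8, a cadherin of neuronal circuits, had the smallest p of all members. Its log2 signal was 1.01, 0.63 and 1.04 in the null samples, against 0.19, 0.40 and -0.015 in the wild-type samples. The groups did not overlap, with 0.63 as the lowest null value and 0.40 as the highest wild-type value. The difference was 0.70 with a standard error (SE) of 0.16, or 1.63-fold (limma, adjusted p = 0.40). The second Cdh8 probe, whose sequence is given above, read -2.18, -2.53 and -2.43 in the null samples, against -2.88, -2.60 and -2.99 in the wild-type samples. It gave the same direction without overlap, with a difference of 0.45 (SE 0.14, limma, adjusted p = 0.568 over probes).

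Cdh11, a cadherin of mesenchymal cells and neurons, gave opposite directions at its probes. Probe 1, the brightest and therefore the one that represents the gene, read 1.64, 1.72 and 1.68 in the null samples, against 1.07, 1.53 and 1.34 in the wild-type samples. All null values lay above all wild-type values, with a difference of 0.37 (SE 0.13, limma, adjusted p = 0.525). Probe 2 read -0.55, -0.60 and -0.50 in the null samples, against -0.49, -0.10 and -0.022 in the wild-type samples. Probe 3 read -1.30, -1.47 and -1.25 in the null samples, against -1.22, -0.87 and -0.90 in the wild-type samples. At both of these probes all null values lay below all wild-type values, with differences of -0.35 (SE 0.14) and -0.34 (SE 0.12) and limma adjusted p over probes of 0.599 and 0.586. Probe 1 is the one whose accessions also belong to 2610005L07Rik and 6820431F20Rik, while the 2 probes that list Cdh11 alone are 34.0 kb and 34.4 kb from it. The mean of the 3 probes gave a difference of -0.11, and within slide 1 the probe 1 difference was 0.15.

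Cdh19, a cadherin of the neural crest and Schwann cell lineage, had log2 signals of -3.78, -3.77 and -3.67 in the null samples, against -3.88, -4.05 and -4.13 in the wild-type samples. The values did not overlap and the difference was 0.28 (SE 0.089, 1.21-fold, limma, adjusted p = 0.506). With background correction by normexp the difference of this dim gene was 0.12. Schwann cell markers (6 of 6 tested, 5 of them above background on every array) had mean deviations of -1.42, 0.29 and -0.026 in the null samples, against 1.99, -0.85 and 0.017 in the wild-type samples. The groups overlapped for 5 of the 6 markers. The sixth, Pmp2, a myelin protein gene, was above background on 0 null arrays and on all 3 wild-type arrays, and was at least 5.21-fold lower in the null samples (limma, adjusted p = 0.447). The part of Schwann cell RNA in the Cdh19 signal was not tested.

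The other tested type II genes had overlapping groups at the probe that represents them. Cdh10, a neuronal cadherin, had the lowest difference among them, -0.19 (SE 0.12), and Cdh18 was higher by 0.31 (SE 0.30). Cdh10 carried 7 kept probes and gave 3 positive and 4 negative differences, between -1.30 and 0.32. The lowest of those 7 rested on null 1, where that probe read -8.27 and was not above background. Cdh20 had a difference of 0.012 (SE 0.17), with 2.34, 2.03 and 2.06 in the null samples, against 1.96, 2.45 and 1.99 in the wild-type samples. Cdh7 had a difference of 0.041 at its brighter probe and of 0.31 (SE 0.094, limma, adjusted p = 0.55 over probes) at its second. Cdh22, Cdh6, Cdh12 and Cdh24 had differences between -0.022 and 0.24.

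**Figure D2:**
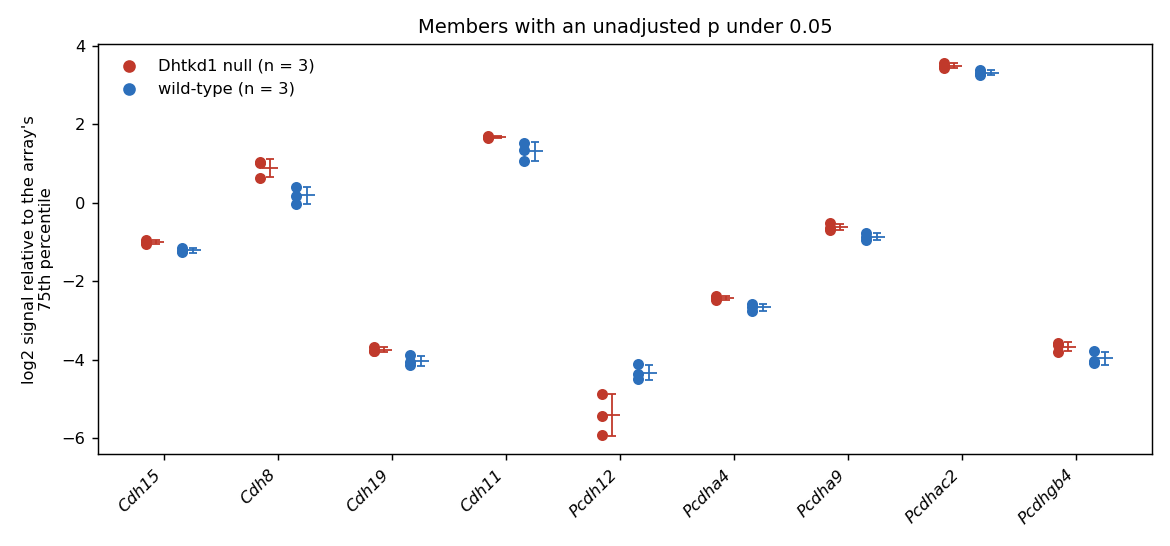
Log2 signal relative to the array's 75th percentile for the 9 members with an unadjusted p under 0.05, with 1 point per array, null samples left of wild-type samples, and bars for the mean ± SD (3 arrays each). Pcdh12 is the 1 gene with null points below wild-type points, and the groups of Pcdhgb4 overlap. Each gene is shown by its brightest kept probe, and the other Cdh11 probes had the opposite direction.

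Of the type I classical cadherins, 4 of 5 had a higher mean in the null samples, against 54.5% of all genes. At an unadjusted p under 0.05, 1 of the 5 was higher (background 5.76% of all genes). Cdh15, or M-cadherin, is known from muscle precursors and cerebellar granule cells. It had log2 signals of -0.99, -0.94 and -1.04 in the null samples, against -1.25, -1.14 and -1.23 in the wild-type samples. All null values were above all wild-type values, and the difference was 0.21 (SE 0.068, 1.16-fold, limma, adjusted p = 0.506). Skeletal muscle markers (6 of 6 tested, all above background on every array) had mean deviations of 0.22, 0.34 and 0.26 in the null samples, against -0.20, 0.90 and -1.52 in the wild-type samples. The part of muscle RNA in the Cdh15 signal was not tested.

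Cdh2, the N-cadherin of neural progenitors, neurons and glia, differed by 0.074 (SE 0.064), and its 3 probes gave 0.041 to 0.074. Its values were -0.071, -0.008 and -0.094 in the null samples, against -0.089, -0.15 and -0.15 in the wild-type samples, and the groups overlapped. Cdh4, the R-cadherin of retina and brain, differed by 0.10 (SE 0.13) at its brightest probe. The other Cdh4 probes gave 0.37 (SE 0.17, limma, adjusted p = 0.63 over probes) and 0.0016 (SE 0.28). Cdh3, the P-cadherin of epithelia, differed by 0.25 (SE 0.17). The groups of the neural members Cdh2 and Cdh4 overlapped at each of their probes.

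Cdh1, the E-cadherin of epithelia and of some sensory neurons, had a wider range over the 6 arrays than any other tested member. Its log2 signal was -5.23, -2.32 and -1.43 in the null samples, against -1.29, -3.75 and -1.12 in the wild-type samples. The groups overlapped and the difference of -0.94 (SE 1.19, limma, adjusted p = 0.819) was within their spread. Cdh1 sits on 10 spots of each array, and the SD between those spots was 0.26 in null 1 and between 0.053 and 0.079 on the other 5 arrays, so the arrays differed by more than the spots did. Null 1 was the lowest and wild-type 3 the highest array for Cdh1, and also for 6 of 6 meningeal fibroblast markers, all above background on every array. The mean of that list deviation was -1.62, -0.18 and 0.55 in the null samples, against 0.23, -0.42 and 1.44 in the wild-type samples, and its part in the Cdh1 signal was not tested.

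Of all 63 members, 4 (6.35%) spanned more than 2 log2 units over the 6 arrays, against 4.06% of all genes. Beside Cdh1 these were Cdh26, Pcdhb2 and Pcdhb11, named here after their values were seen. Cdh26, an epithelial cadherin, read -6.93, -6.41 and -3.81 in the null samples, against -5.66, -4.26 and -6.75 in the wild-type samples. Null 3 and wild-type 2 stood above the others, and the probe was above background on 2 arrays of each group. Pcdhb2 read -4.70, -1.88 and -4.42 in the null samples, against -2.62, -4.75 and -5.10 in the wild-type samples. Null 2 and wild-type 1 stood apart from the other 4 arrays. Pcdhb11 read -2.47, -4.80 and -5.46 in the null samples, against -5.11, -5.46 and -5.22 in the wild-type samples, with null 1 alone above the rest. The sensory ganglion markers that were tested (2 of 6) had a mean deviation of 2.46 in null 3 and between -0.61 and -0.31 on the other arrays, and their part in these signals was not tested.

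**Figure D3:**
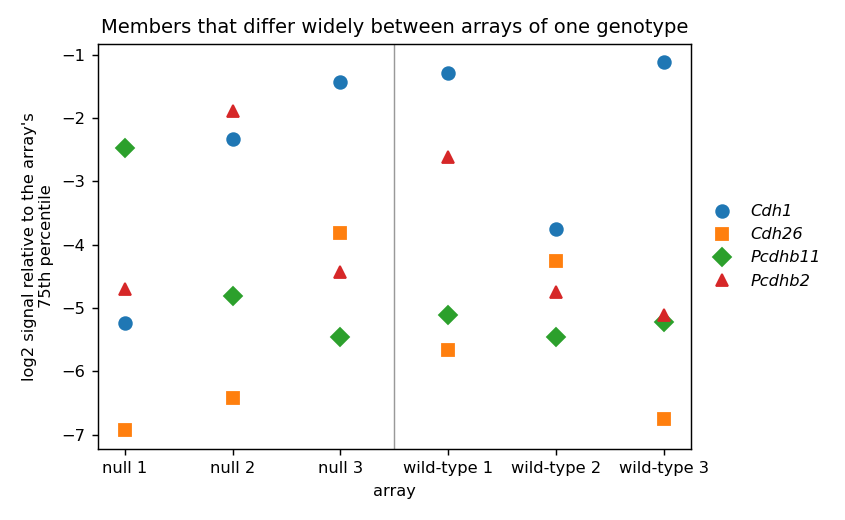
Log2 signal relative to the array's 75th percentile for Cdh1, Cdh26, Pcdhb11 and Pcdhb2 on each array, null samples left of the line and wild-type samples right of it. The high and low arrays differ from gene to gene, and both genotypes hold high and low values of Cdh1, Cdh26 and Pcdhb2.

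The other tested cadherins were Cdh13, Cdh16, Cdh23 and Cdh26, and 3 of the 4 had a higher mean in the null samples. Cdh16, a cadherin of kidney epithelium, had the smallest p of them, with -6.03, -6.85 and -6.37 in the null samples, against -6.53, -6.90 and -7.25 in the wild-type samples. The groups overlapped, the difference was 0.48 (SE 0.27, limma, adjusted p = 0.637), and the probe was above background on 2 null arrays and 1 wild-type array. Cdh13, the membrane-anchored T-cadherin, differed by 0.11 (SE 0.078), with 2.61, 2.55 and 2.63 in the null samples, against 2.60, 2.41 and 2.45 in the wild-type samples. Cdh23, which forms the tip links of hair cells with Pcdh15, differed by 0.045 (SE 0.21). Its partner Pcdh15 differed by -0.085 (SE 0.10) at its brightest probe and by -0.026 (SE 0.090) at a second probe that also lists Pcdh15. Another probe placed in the gene, with no RefSeq gene listed, differed by 0.25 (SE 0.11).

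Of the 9 delta protocadherins, 7 had a higher mean in the null samples, against 54.5% of all genes, and the median difference was 0.048. None had an unadjusted p under 0.05 (0 of 9 in limma, background 5.76% higher and 3.26% lower). Pcdh8, a protocadherin that acts in cadherin uptake at synapses, read 0.12, 0.014 and 0.055 in the null samples, against -0.016, -0.45 and -0.23 in the wild-type samples. There was no overlap, and the difference was 0.30 (SE 0.12, limma, adjusted p = 0.556). Without wild-type 2 it was 0.19, and within slide 1, where wild-type 2 is the single wild-type sample, it was 0.51. Pcdh7 is a delta protocadherin with several carboxyl-terminal forms. At probe 1 it read -1.59, -1.60 and -1.55 in the null samples, against -1.62, -1.68 and -1.91 in the wild-type samples, and the null values lay above the wild-type values. Probe 2 read -3.003, -3.08 and -3.09 in the null samples, against -2.70, -2.90 and -2.93 in the wild-type samples, and there the null values lay below. The differences were 0.16 (SE 0.094) and -0.22 (SE 0.089), with limma adjusted p of 0.649 over genes and 0.608 over probes.

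Pcdh9 had 4 kept probes, which gave differences between -0.10 and -0.001, all below 0. Pcdh17, a protocadherin of presynaptic clusters, read 3.05, 3.11 and 2.496 in the null samples, against 2.997, 2.90 and 2.61 in the wild-type samples, a difference of 0.047 (SE 0.20). Null 3 was the lowest of the 6 arrays for Pcdh17. Pcdh10, which guides striatal axons, differed by 0.047 (SE 0.070), and Pcdh19, on the X chromosome, by 0.11 (SE 0.12). Pcdh1, Pcdh11x and Pcdh18 had differences between -0.0007 and 0.069 at the probes that represent them. The other Pcdh11x probes gave 0.076 (SE 0.13) and 0.32 (SE 0.16, limma, adjusted p = 0.647 over probes). Among the 25 members with at least 2 kept probes, all probes had 1 sign in 16 genes and both signs occurred in 9, and the remaining 38 members had 1 kept probe.

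**Figure D4:**
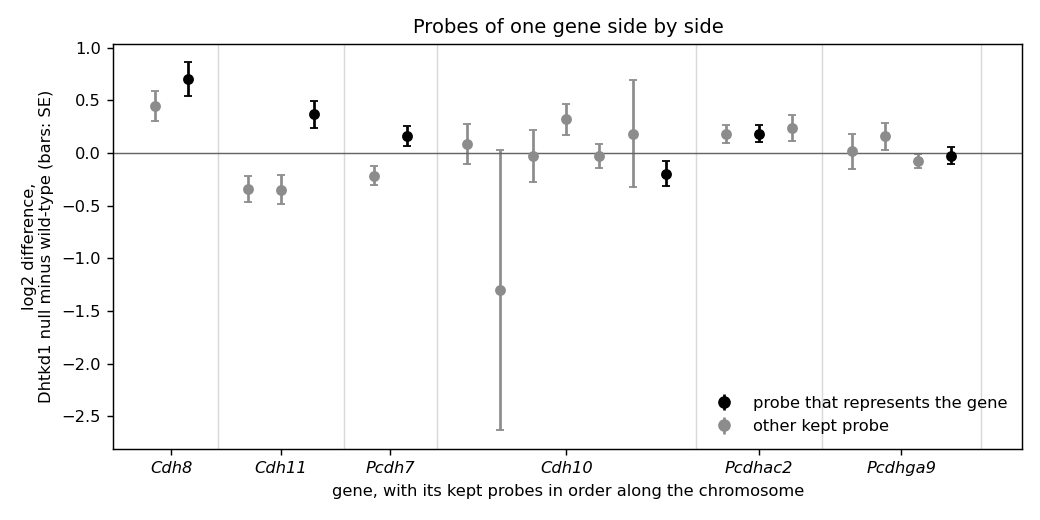
Log2 difference (null minus wild-type) ± SE of every kept probe of 6 members, in order along the chromosome within each gene, with the probe that represents the gene in black. The probes of Cdh8 and Pcdhac2 lie above 0 throughout, while Cdh11 and Pcdh7 have probes on both sides of 0.

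The non-clustered protocadherins outside the delta group were Pcdh12, Pcdh15 and Pcdh20, and Pcdh12 was the 1 member that was lower at an unadjusted p under 0.05. Pcdh12 is a protocadherin of endothelial cells. Its log2 signal was -5.91, -5.44 and -4.86 in the null samples, against -4.37, -4.11 and -4.49 in the wild-type samples. Null and wild-type values did not overlap, and the difference was -1.08 (SE 0.28, 2.11-fold lower, limma, adjusted p = 0.432). The probe was above background on all 6 arrays but dim, and with background correction by normexp the difference was -0.33. A second Pcdh12 probe was above background on 1 array and was not tested. Endothelial markers (6 of 6 tested, all above background on every array) had mean deviations of -0.32, 0.17 and 0.22 in the null samples, against -0.035, -0.19 and 0.15 in the wild-type samples. The groups overlapped for that mean and for 5 of the 6 markers. The sixth, Flt1, a receptor for vascular endothelial growth factor, had log2 signals of 3.38, 3.46 and 3.68 in the null samples, against 3.11, 3.26 and 3.26 in the wild-type samples, without overlap (difference 0.30, SE 0.10, limma, adjusted p = 0.527). The part of endothelial content in the Pcdh12 signal was not tested.

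The clustered protocadherins lie together on chromosome 18, and 31 of 33 were tested. Of the 31, 28 (90.3%) had a higher mean in the null samples, against 54.5% of all genes, with a median difference of 0.15. An unadjusted p under 0.05 was found for 4 of the 31, all higher, against 5.76% of all genes. The groups did not overlap for 6 of the 31, all higher, against 9.19% of all genes. Wild-type 3 was the lowest array for 20 of the 31 (64.5%). Without it, 19 of 31 were higher, against 51.0% of all genes, and the median was 0.018. Within slide 1, 22 of 31 were higher, against 51.1% of all genes, and the median was 0.066. With each array centred on its median, 24 of 31 were higher, against 43.1% of all genes, and 16 of the 24 were among the 21 tested beta genes. The probes that represent Pcdhb18, Pcdhac2 and Pcdhga9 each list several genes of the cluster, so those signals cannot be assigned to 1 gene.

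**Figure D5:**
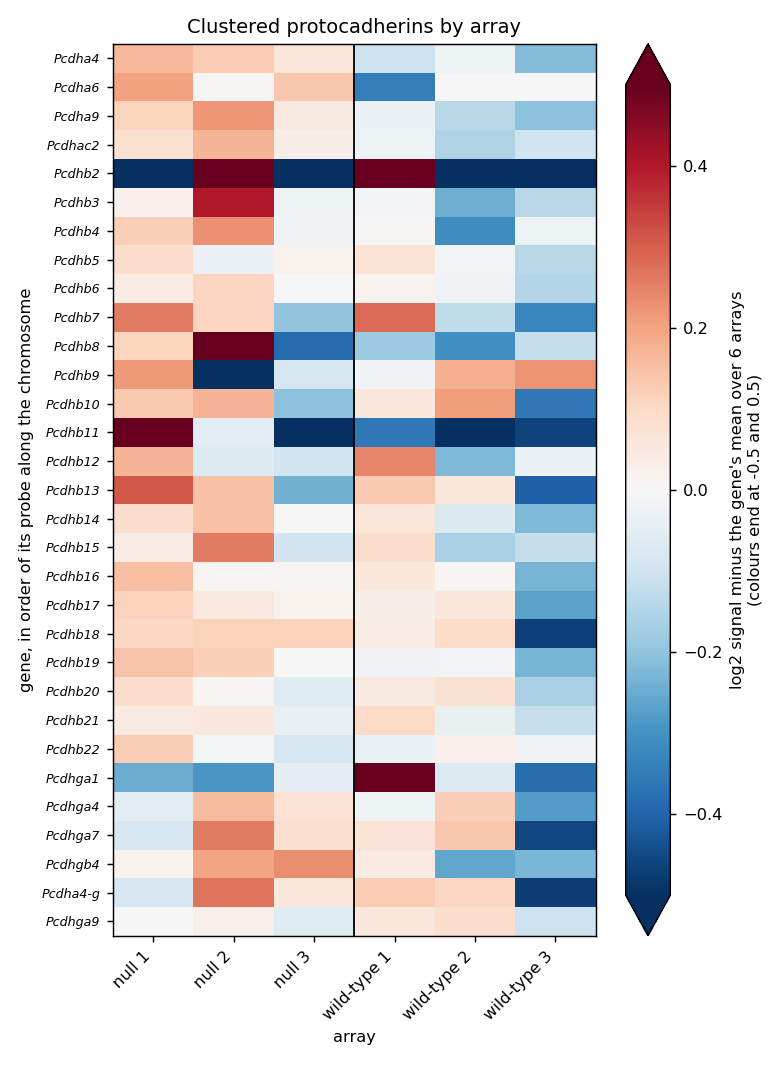
Log2 signal of each tested clustered protocadherin on each array, minus the gene's mean over the 6 arrays, with genes in order along the chromosome and null samples left of the line. The wild-type 3 column is blue for most genes, and the alpha genes at the top are mostly red in the null columns.

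All 5 tested alpha names had a higher mean in the null samples, between 0.16 and 0.25, with a median of 0.23. Their mean deviation was 0.093, 0.16 and 0.064 in the null samples, against -0.075, -0.041 and -0.20 in the wild-type samples, so the groups did not overlap. Without wild-type 3, 4 of 5 were higher (median 0.18), as were 4 of 5 within slide 1 (median 0.14). Pcdha4-g carries an alpha name in the files, but its probe lies beyond the beta genes among the gamma genes.

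Pcdha4, one of the alternate alpha isoforms, read -2.38, -2.42 and -2.48 in the null samples, against -2.65, -2.57 and -2.76 in the wild-type samples. The difference was 0.23 (SE 0.078, 1.17-fold, limma, adjusted p = 0.514), and 0.14 within slide 1. The Pcdha4 probe lists Gm37013 as well, so it may not report Pcdha4 alone. Pcdha9 read -0.63, -0.52 and -0.69 in the null samples, against -0.76, -0.87 and -0.94 in the wild-type samples. Its difference was 0.25 (SE 0.083, 1.19-fold, limma, adjusted p = 0.516). In both genes all null values lay above all wild-type values, and so they did in Pcdha6, where the difference of 0.23 had a larger SE of 0.12.

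Pcdhac2, the last variable exon of the alpha cluster, read 3.48, 3.57 and 3.43 in the null samples, against 3.38, 3.25 and 3.30 in the wild-type samples. The difference was 0.18 (SE 0.074, 1.14-fold, limma, adjusted p = 0.549). Each of the 3 probes named Pcdhac2 lists 4 alpha genes (Pcdha4, Pcdha9, Pcdhac1 and Pcdhac2), so they do not report Pcdhac2 alone. All 3 had non-overlapping groups, with differences of 0.18, 0.18 and 0.24.

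Of the 21 tested beta genes, 20 had a higher mean in the null samples, against 54.5% of all genes. None had an unadjusted p under 0.05 (0 of 21 in limma, background 5.76% higher and 3.26% lower). Beta genes have a single exon each, and every beta probe except that of Pcdhb18 lists a single RefSeq gene. The median difference was 0.12, and without wild-type 3 it was 0.018 with 13 of 21 higher. Pcdhb3 had the smallest p, with -1.09, -0.72 and -1.14 in the null samples, against -1.13, -1.36 and -1.26 in the wild-type samples. The groups overlapped, the difference was 0.26 (SE 0.14, limma, adjusted p = 0.613), and without null 2 it was 0.13. Pcdhb18 and Pcdhb19, both higher, were the beta genes without overlap (2 of 21, near the background of 9.19% of all genes). Pcdhb18 read -2.515, -2.503 and -2.502 in the null samples, against -2.58, -2.53 and -3.09 in the wild-type samples, so its difference of 0.22 rested mainly on wild-type 3, and its probe lists Pcdhb17 and Pcdhb20 as well. Pcdhb9 was the beta gene with a lower mean in the null samples, by -0.26 (SE 0.19).

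Of the 5 tested gamma genes, 3 had a higher mean in the null samples. Pcdhgb4 read -3.79, -3.61 and -3.58 in the null samples, against -3.77, -4.07 and -4.04 in the wild-type samples. Null 1 lay just below wild-type 1, so the groups overlapped, and the difference was 0.30 (SE 0.11, 1.23-fold, limma, adjusted p = 0.535). The brightest probe named Pcdhga9 lists 4 gamma genes (Pcdhga1, Pcdhga5, Pcdhga6 and Pcdhga9). It read 4.64, 4.66 and 4.57 in the null samples, against 4.69, 4.72 and 4.53 in the wild-type samples, a difference of -0.023 (SE 0.080). A neighbouring probe with the same 4 genes gave -0.075 (SE 0.069). Another probe of this name, which lists 4 genes as well, gave 0.16 (SE 0.13), so the shared gamma probes had both signs where the shared alpha probes had 1, and the difference between them was not tested. The probe that lists Pcdhga9 alone, which was dimmer, gave 0.015 (SE 0.17). Pcdhga4 differed by 0.12 at its brighter probe and by 0.68 (SE 0.24, limma, adjusted p = 0.579 over probes) at its dimmer one.

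Genes that act with the cadherins showed no common direction. Of 16 catenins and genes of cadherin turnover, 7 had a higher mean in the null samples, against 54.5% of all genes, and the median difference was -0.073. At an unadjusted p under 0.05, 1 was higher (background 5.76% of all genes) and 1 was lower (background 3.26%). The groups did not overlap for 1 gene that was higher (background 9.19%) and 3 that were lower (background 5.63%). Mgat5, a glycosyltransferase that acts on cadherins, read 0.27, 0.20 and 0.40 in the null samples, against 0.028, 0.023 and -0.019 in the wild-type samples. Its null values lay above its wild-type values, and the difference was 0.28 (SE 0.077, limma, adjusted p = 0.464). Ctnna3, the alpha-T-catenin, was lower without overlap, by -0.24 (SE 0.085, limma, adjusted p = 0.529). Of 26 regulators and partners of protocadherins, such as Ctcf, Smchd1 and the cohesin genes, 14 had a higher mean in the null samples, none passed an unadjusted p of 0.05 (0 of 26 in limma), and the median was 0.005. The 2 with the smallest p were Rest, a repressor of neuronal genes, at -0.12 (SE 0.063), and Wiz, a zinc finger partner of histone methyltransferases, at -0.13 (SE 0.071). Of 24 other cadherin superfamily genes 16 were tested, 9 had a higher mean, and 0 passed an unadjusted p of 0.05. Fat1 differed by -0.16 (SE 0.068) and Celsr3, which acts in axon guidance, by 0.21 (SE 0.090), both without overlap.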

How the data were processed

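RNA of 3 Dhtkd1 null and 3 wild-type spinal cord samples was measured on 1-colour arrays (design 014868, mm9). The deposited scanner files hold intensity per spot, background-subtracted and detrended within the array by Agilent Feature Extraction 10.7.3.1, per the file headers. The deposited value table holds log2 values whose method is not given in the sources used here; it was an alternative, and it follows the log2 intensity of its own array at r of at least 0.9999 with column medians of 7.22. The scanner software's outlier spots (58 to 89 per array) were left out, spots of a probe were averaged, and log2 signals were set relative to each array's 75th percentile over non-control probes. Probes well above background on at least 3 of 6 arrays were kept, and the brightest kept probe stood for its gene. Null minus wild-type was fitted over all genes with limma 3.58.1 (lmFit and eBayes, 2-sided, R 4.3.3) with Benjamini-Hochberg adjustment, and all kept probes were fitted in the same way; the fit was tested on simulated data. Of the members, 0 spots were saturated. Genes other than members were given current symbols through RefSeq accessions (GRCm38.p6). The members and lists were chosen with earlier results of these data known. Members named were those at an unadjusted p under 0.05, the one of smallest p in a group with none, and a set of exemplars of each group; from each other list, those at an unadjusted p under 0.05, or else the 2 of smallest p. Other members are named as examples. The alternatives were other scalings, background correction, filters, probe choices, slide and replicate blocks and leaving out each sample. The number of arrays limits the precision of every value, and 0 columns belonged to no sample.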

Additional observations from a re-analysis of the deposited data

How the results depend on the processing

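No member reached an adjusted p under 0.05 under any of the 21 alternatives, 1 of which (the percentile taken over spots in place of probes) was added after seeing the data; it was the scaling of a first run, and it gave 54 of 63 members a higher mean in place of 52. The count of members higher at an unadjusted p under 0.05 was 8 in the main fit (background 5.76% of all genes). It was 3 with median centring, which moves the median of all genes to -0.028, and 5 with the authors' value table. With slide as a fixed block it was 3, and 1 of the 9 members under that p in the main fit remained so. It was 2 to 11 when 1 sample was left out. Without wild-type 3 it was 2, without null 1 or null 2 it was 3, without wild-type 2 it was 4 and without wild-type 1 it was 11. The shares of all genes under these alternatives are not given here. The counts alone therefore do not separate a change of the members from a change over all genes. The count of lower members was 1, and it was 2 with slide as a fixed block and 0 on slide 1 alone. The median difference of members was 0.11 and lay between 0.018 and 0.17 when 1 sample was left out. With the replicate number as a block (replicate block) 6 members were higher, 1 was lower and the median was 0.11; deviations of same-numbered samples correlated at -0.016, -0.11 and 0.33, so the numbers were not taken to pair the samples. Of 650 values of single genes under the alternatives, 618 kept their direction and 32 reversed, none of them past the threshold. The cause was not tested. Part of the kept directions was fixed in advance, because the eBayes options and the replicate block do not change a difference. Slide as a fixed block and slide 1 alone give the same differences, so their reversals are counted in both. The reversals of Cdh11 (-0.11), Pcdh7 (-0.028) and Pcdh15 (0.047) came with the mean of probes. Cdh1 was 0.75 with slide as a block or on slide 1 alone, and -1.79 to 0.18 when 1 sample was left out (0.18 without null 1). Cdh20 was -0.033 with median centring and -0.30 with slide, and -0.086 to 0.17 by sample left out. Cdh23 was -0.038 with quantile normalization, -0.040 with the authors' table, -0.00026 with median centring and -0.22 with slide, and -0.097 to 0.23 by sample left out. Pcdh9 was 0.0049 with quantile normalization, 0.0063 with normexp, 0.0027 with the authors' table and 0.0044 with the percentile over spots, and -0.067 to 0.12 by sample left out. With slide, Pcdh10 was -0.033 and Pcdh17 -0.014, and Pcdh17 was -0.064 to 0.24 by sample left out. Signal over background limits the dim members, and with normexp Pcdh12 was -0.33 and Cdh19 0.12.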
